A study of Mus musculus with 42 samples.

Results

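Translation initiation factors were followed on mouse bead arrays from the inner cell mass (ICM) through its outgrowths to embryonic stem cells (ESCs). The members were all genes with a symbol beginning Eif1 to Eif6, without the X- and Y-linked Eif2s3x and Eif2s3y and without the eIF2α kinases (Eif2ak). They numbered 44 of 19057 genes with a symbol on the first array type and 41 of 16593 on the second, where Eif2a, Eif2b3 and Eif4g3 were not found. Of these, 39 and 36 passed a filter on low signal (detection p under 0.05 on at least 2 arrays) and were tested, 36 of them in both runs. Eif1ax, Eif4e1b, Eif4ebp3 and Eif5a2 did not pass in either run, Eif4g3 did not pass in the first run, and Eif5b did not pass in the second. Since passing the filter depends on the groups in which a gene is bright, no count below covers the untested members.

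The first run, on the Mouse WG-6 array type, held 18 BALB/c arrays in 6 groups of 3 biological replicates, namely ICM, whole-blastocyst outgrowths on days 3, 5, 7 and 9 (BO-3 to BO-9) and ESCs. The second held 24 MouseRef-8 arrays, with 2 replicates in each of 11 groups of hybrid samples and 2 further arrays of BALB/c ICM. For this run and for other experiments together the paper lists B6 x C3H F1 hybrids and crosses of such F1 mice. The crosses were of F1 females with CD1 males, and of F1 hybrids with OG2 mice, which carry a GFP transgene driven by Pou5f1 sequences. The paper does not say which of these the arrays came from. The hybrid groups were ICM, outgrowths of isolated ICMs (IO) numbered by the day of culture (IO-0.5 and IO-1, then IO-2, then IO-3 and IO-5), ESCs at passages 2, 4 and 15 (P2, P4, P15), and outgrowths in SB medium on days 1 and 3 (SBIO-1, SBIO-3). ICMs were freed from the trophectoderm by immunosurgery and were not cultured. Outgrowths and ESCs grew without serum in N2B27 with R2i, which is 1 µM PD0325901, an inhibitor of MEK, and 10 µM SB431542, which blocks the type I receptor of TGF-β, together with leukaemia inhibitory factor (LIF) at 1000 U/ml. SB medium held SB431542 and LIF and no PD0325901. Each outgrowth replicate was a pool of 20 to 30 outgrowths in the first run and 30 to 40 in the second, and RNA was amplified in a pair of rounds before labelling. No source used here states how many lines the ESC replicates came from, or that replicate numbers pair arrays of different groups. P-values therefore measure the spread between these pools and cultures only.

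A level below is a normalised log2 intensity of the gene's brightest probe, and a change is a difference of mean levels on that scale with its standard error (SE). Quantile normalisation gives every array of a run the same distribution, so that a level is relative to the other genes on the array. A gene was called changed when it differed by at least 2-fold with an adjusted p (limma, Benjamini-Hochberg over all genes) no higher than 0.05 for BALB/c and 0.01 for hybrid samples. The study presents 2 replicates of BO-3 and does not say which array was dropped. Here replicate 1 of BO-3 was left out of the fit. The share of probes detected was 26.2% on it and 28.9% to 35.4% on the 17 arrays fitted. The hybrid ICM arrays stood apart from the rest of their run, with shares of 24.2% and 18.0% where the remaining 20 hybrid arrays had 33.0% to 45.6%.

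In eukaryotic initiation the 40S ribosomal subunit, bound by eIF1A, eIF3 and a ternary complex of eIF2, GTP and the initiator tRNA, is brought to the capped mRNA by eIF4F and scans to the start codon. eIF2B recharges eIF2 with GTP, and the 4E-binding proteins hold back the cap-binding subunit eIF4E until mTORC1 phosphorylates them. ESCs are known for a low rate of protein synthesis compared with their differentiated descendants, and MEK signalling reaches eIF4E through the MNK kinases.

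The upstream sequences of the 3 genes on which the results turn are shown because their levels separated ESCs from ICM (Eif4e) or, on day 3, MEK-inhibited from uninhibited outgrowths (Eif2s2, Eif3j1). They were taken from RefSeq on GRCm38.p6 and are written 5′ to 3′ on the strand of the gene, with motif matches in capitals. The 250 bases before the start of Eif2s2 (chr2:154892907-154893156, minus strand) hold 1 match, starting 75 bases before the start, to ACTACANNTCCCA, the element bound by Thap11 (Ronin) and Zfp143. The 250 bases before the start of Eif3j1 (chr2:122028330-122028579, plus strand) hold 5 matches to the GC box (GGGCGG on either strand), some of which overlap each other. The 30-base stretches of Eif4e (chr3:138527028-138527057 and chr3:138527192-138527221, plus strand) each hold an E-box (CACGTG, the same on both strands), 228 and 64 bases before the downstream one of 2 annotated starts.
Eif2s2: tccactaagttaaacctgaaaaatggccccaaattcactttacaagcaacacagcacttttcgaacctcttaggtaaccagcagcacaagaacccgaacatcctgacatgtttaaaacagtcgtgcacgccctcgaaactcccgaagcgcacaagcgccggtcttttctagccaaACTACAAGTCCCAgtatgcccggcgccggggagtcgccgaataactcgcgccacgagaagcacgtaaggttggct
Eif3j1: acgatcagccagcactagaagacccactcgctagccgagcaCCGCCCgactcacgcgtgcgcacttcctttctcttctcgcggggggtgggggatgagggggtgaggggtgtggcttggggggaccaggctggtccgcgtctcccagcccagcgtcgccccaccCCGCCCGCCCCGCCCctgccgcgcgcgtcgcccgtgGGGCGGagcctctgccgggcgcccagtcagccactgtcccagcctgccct
Eif4e, distal E-box: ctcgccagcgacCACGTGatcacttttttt
Eif4e, proximal E-box: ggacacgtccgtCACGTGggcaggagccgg

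Promoter windows of 33 members were in RefSeq's table, 45 windows in all. The E-box was in 22.2% of these windows and in 6.02% of all 32851 windows of the table, the GC box in 68.9% against 32.7%, the ETS site CCGGAAG in 24.4% against 6.91%, and CCAAT in 24.4% against 33.8%. All motifs were searched on both strands. ACTACANNTCCCA was in 6.67% of the members' windows (Eif2b4, Eif2s2, Eif3c) and in 1.35% of all. These are matches of letters, and binding was not measured.

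Most initiation factors varied little across the BALB/c groups. The span from the lowest to the highest group mean had a median of 0.64 over the 39 members and of 0.88 over all 11450 genes tested. It was under 1 (2-fold) for 29 members, or 74.4%, against 56.5% of all genes. Only Eif4e and Eif2s2 spanned 2 or more, which is 5.13% of the members against 14.5% of all genes. In the hybrid run the spans were wider for members and for all genes alike, with medians of 1.38 over 36 members and 1.89 over 10013 genes. There 11 members, or 30.6%, spanned 2 or more, against 45.9% of all genes. Of the members that passed the detection filter, 35 of 39 were detected on all 17 arrays fitted in the first run and 24 of 36 on all 22 in the second. The same share over all genes was not counted. Eif3e and Eif3m in both runs, Eif4ebp2 in the first and Eif4b in the second were detected on under 6 arrays.

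**Figure D1:**
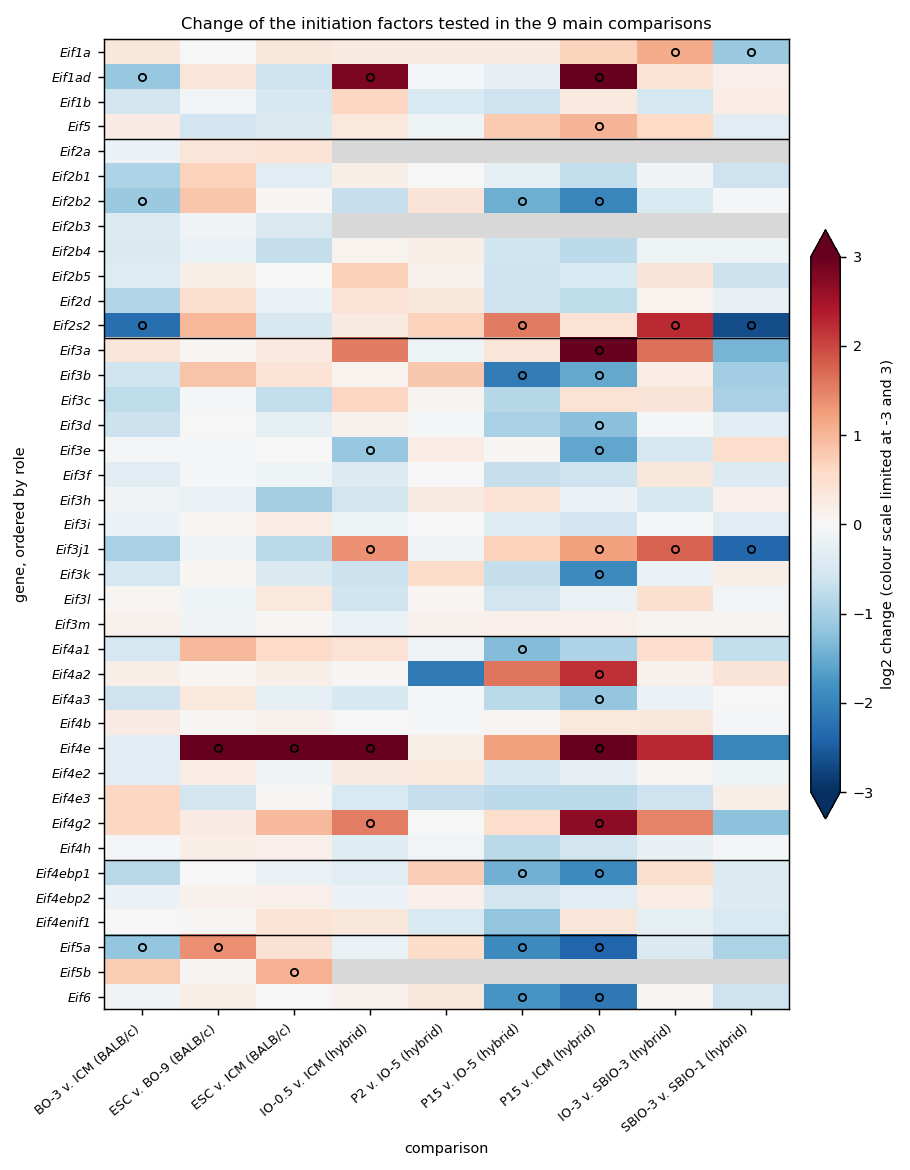
Colours show the log2 change of each tested initiation factor (rows, ordered by role) in the 9 main comparisons (columns), red for higher and blue for lower in the first-named group. Circles mark called changes and grey cells genes not tested in that run. Calls are sparse except in P15 against ICM, where 16 of 36 members (44.4%) were called, against 48.1% of all genes. Eif4e rose in 4 columns. The blue cells of P15 against ICM depend on quantile normalisation. With median scaling 28 members were higher and none lower, and nearly all genes called were higher too.

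From ICM to BO-3 the factors moved down more often than up. Of 39 members 29 were below 0 and 10 above, with a median change of -0.32 against -0.02 over all genes. Eif2s2, Eif5a, Eif1ad and Eif2b2 fell and none rose, where 7.48% of all genes were called lower and 13% higher. The calls of Eif5a, Eif1ad and Eif2b2 were lost when BO-3 replicate 1 was kept. They were also lost with each array scaled to a common median in place of quantile normalisation. That of Eif2s2 held in both. Within the outgrowth period no member was called by limma. This held from BO-3 to BO-5, where 0.507% of all genes were called and 1 member had an unadjusted p under 0.05, from BO-5 to BO-7 (0.603% of genes, 2 members) and from BO-7 to BO-9 (0.934% of genes, 3 members). From BO-9 to ESCs Eif4e and Eif5a rose and no member fell, where 4.79% of all genes were called higher and 8.86% lower. ESCs against ICM gave calls of Eif4e and Eif5b, both higher, where 13.9% of genes were higher and 11.7% lower. With 20 members above 0 and 19 below, the median change between these ends of the BALB/c course was 0.01.

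Within 0.5 day of plating hybrid ICMs, Eif1ad, Eif4e, Eif3j1 and Eif4g2 rose against ICM and Eif3e fell, 4 and 1 of 36 members, where 11.6% of all genes were called higher and 12.2% lower. No member was called by limma from IO-0.5 to IO-1 (3.4% of genes called, 3 members with an unadjusted p under 0.05), from IO-1 to IO-2 (1.8% of genes, 1 member), from IO-2 to IO-3 (0.0999% of genes, 4 members) or from IO-3 to IO-5 (0.16% of genes, 5 members). None was called from IO-5 to P2 either, where 0.0799% of genes were higher and 1.24% lower and 3 members had an unadjusted p under 0.05. From P2 to P4 only Eif5a was called, lower, where 0.32% of genes were called and 13 members had an unadjusted p under 0.05. From P4 to P15 none was called, where 0.33% of genes were and 11 members had an unadjusted p under 0.05. The share of all genes under that unadjusted limit was not counted in any comparison.

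At passage 15 the picture was mixed. Against IO-5, P15 had Eif2s2 higher and Eif2b2, Eif3b, Eif4a1, Eif4ebp1, Eif5a and Eif6 lower, so that 6 of 36 members (16.7%) fell where 6.99% of all genes did, and 1 rose where 4.99% did. The median change of the members was -0.58 against -0.04 over all genes, with 24 below 0. Against hybrid ICM, P15 had 7 members higher and 9 lower, or 19.4% and 25% of those tested, close to the 24.2% and 23.9% of all genes. Each array was also scaled to a common median in place of quantile normalisation. The median of all genes then lay 1.47 higher in P15 than in hybrid ICM. Nearly all genes called were higher in P15, and of the members 28 were higher and none lower. The changes of Eif2b2, Eif3b, Eif4ebp1, Eif5a and Eif6 turned positive (1.35 to 2.00). Under that scaling no member was called between P15 and IO-5. There Eif2b2, Eif3b, Eif4ebp1, Eif5a and Eif6 still lay lower in P15, by values from -1.75 to -0.67, and Eif2s2 lay 2.33 higher with an adjusted p of 0.0362.

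In SB medium 3 members, Eif2s2, Eif3j1 and Eif1a, fell from day 1 to day 3, where 3.69% of all genes were called lower and 3.44% higher. The same 3 were higher in IO-3 than in SBIO-3, where 6.2% of genes were higher and 4.85% lower. No member was called between IO-1 and SBIO-1, where 2.52% of genes were and 5 members had an unadjusted p under 0.05. The SBIO-1 arrays and the SBIO-3 arrays each enter 2 of these comparisons.

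Eif1a, which encodes an eIF1A that helps scanning and start-codon choice, was at 11.23 and 11.13 in SBIO-1 and at 10.04 and 10.10 in SBIO-3. In R2i it was at 10.75 and 10.78 on day 1 and at 11.31 and 11.04 on day 3. Both SBIO-3 arrays thus lay below every other hybrid array. It fell by 1.11 (SE 0.24, 2.16-fold, adjusted p = 0.00529) from SBIO-1 to SBIO-3 and was 1.11 higher (SE 0.24, 2.16-fold, adjusted p = 0.00389) in IO-3 than in SBIO-3, calls that were lost when any 1 of the arrays compared was left out. In the BALB/c run the gene spanned 0.47 over the group means.

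Eif1ad, whose product carries an eIF1A-like domain, was read by different probes in the runs. In BALB/c it stood at 11.16, 11.61 and 11.54 in ICM and at 10.18 and 10.42 in BO-3. The groups did not overlap, and the fall was 1.13 (SE 0.17, 2.19-fold, adjusted p = 3.73e-05). Of its other probes in that comparison 1 changed by -1.53. The remaining one, which stood for the gene in the hybrid run, changed by 1.86, the opposite way. From BALB/c ICM to ESCs it rose by 2.61, while the probe standing for Eif1ad in BALB/c changed by -0.62. In hybrid ICM its probe was not detected (4.38 and 4.90), and in IO-0.5 it was at 7.88 and 7.03. From then on it stayed between 7.03 and 8.60 on every hybrid array. The rise to IO-0.5 was at least 1.46-fold (adjusted p = 1.37e-05), taken against the dimmest detected probes of the ICM arrays, and that to P15, at 7.92 and 8.05, at least 2.11-fold (adjusted p = 7.47e-07). Eif5, which makes eIF2 hydrolyse its GTP, was 1.03 higher in P15 than in hybrid ICM (SE 0.25, 2.05-fold, adjusted p = 0.00176), and Eif1b was not called in any main comparison.

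Eif2s2 encodes the β subunit of eIF2 and was called in 4 of the 9 main comparisons. BALB/c ICM held it at 12.84, 12.86 and 12.76 and BO-3 at 10.40 and 10.72. All outgrowth arrays of that run lay between 10.40 and 11.55, under every ICM array and under the ESC arrays at 12.27, 12.44 and 12.32. From ICM to BO-3 it fell by 2.26 (SE 0.16, 4.79-fold, adjusted p = 6.72e-09). ESCs were 0.99 above BO-9 (SE 0.15, adjusted p = 4.48e-05), which missed the 2-fold limit.

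In hybrid outgrowths Eif2s2 was at 12.55 and 12.70 at IO-0.5 and at 11.17 and 11.28 at IO-5. It was at 12.84 and 12.74 at P15, above all other hybrid arrays, which was 1.57 over IO-5 (SE 0.20, 2.96-fold, adjusted p = 0.000104). In SB medium it stood at 12.07 and 12.32 on day 1 and at 9.45 and 9.63 on day 3. The day 3 arrays were the lowest of the run and did not overlap with the R2i arrays of that day at 11.73 and 11.83. The fall in SB medium was 2.65 (SE 0.20, 6.3-fold, adjusted p = 5.51e-07) and the excess in IO-3 over SBIO-3 was 2.24 (SE 0.20, 4.72-fold, adjusted p = 2.19e-06). A second probe of the gene moved alike in all of these, by -2.29 from ICM to BO-3, 2.86 from IO-5 to P15, 2.54 in IO-3 over SBIO-3 and -2.54 in SB medium.

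Eif2b2 encodes a regulatory subunit of eIF2B. It was at 7.88, 7.77 and 7.58 in BALB/c ICM and at 6.52 and 6.73 in BO-3, a fall of 1.12 (SE 0.21, 2.17-fold, adjusted p = 0.000358) without overlap. ESCs, at 8.10, 7.64 and 7.65, were at the ICM level again (change 0.05, SE 0.19, adjusted p = 0.849). In hybrid samples the order of the ends differed, with ICM at 8.50 and 8.64, IO-5 at 8.17 and 7.99, P2 at 8.46 and 8.45, P4 at 6.89 and 7.36 and P15 at 6.69 and 6.55. P15 lay below every other hybrid array. It was 1.46 below IO-5 (SE 0.30, 2.75-fold, adjusted p = 0.0025) and 1.95 below ICM (SE 0.30, 3.86-fold, adjusted p = 4.11e-05). In the step from BALB/c ICM to BO-3, in which 29 of all 39 members were below 0, so were all 8 tested of the ternary complex and eIF2B group, with a median of -0.66. Of these 8, 2 were called, where 7.48% of all genes were called lower.

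**Figure D2:**
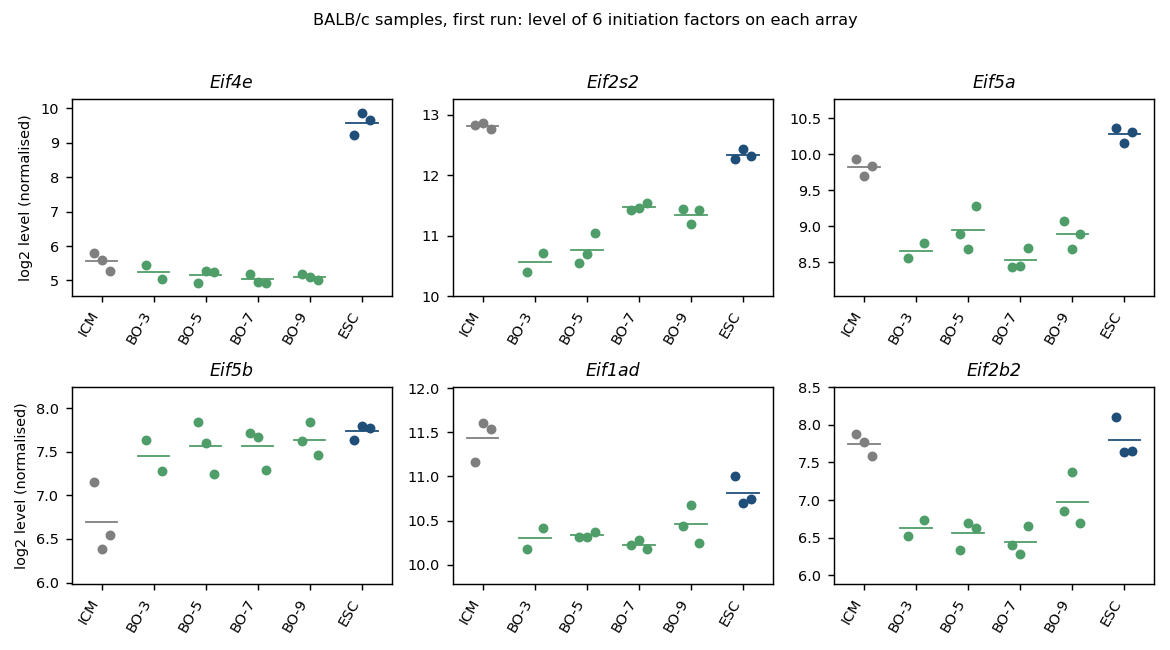
Points give the log2 level of 6 initiation factors on each BALB/c array fitted (3 per group, 2 for BO-3), and bars the group means. Grey is ICM, green outgrowths and blue ESCs, and each panel has its own axis. Eif4e is at 9.22 to 9.86 in ESCs and under 6 on every other array, while Eif2s2, Eif5a, Eif1ad and Eif2b2 are lower in BO-3 than in ICM.

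Among the eIF3 subunits, 12 of which were tested in each run, none was called in the BALB/c comparisons. Eif3j1, a loosely bound subunit, was the one called most often in the hybrid run. It was not detected in hybrid ICM (5.58 and 4.93) and was at 7.01 and 6.25 in IO-0.5. Since the dimmest detected probes of the ICM arrays were brighter than that, no fold is given for its calls against ICM at IO-0.5 (adjusted p = 0.00195) and at P15 (6.42 and 6.54, adjusted p = 0.00205), the latter lost without ICM replicate 2 or either P15 array. In SB medium it was the highest of all hybrid groups on average on day 1, at 7.10 and 6.81, and was not detected on day 3, at 4.41 and 4.77. IO-1 stood at 6.09 and 5.56 and IO-3 at 6.09 and 6.62, which overlap. The fall from SBIO-1 to SBIO-3 was at least 3.51-fold (adjusted p = 6.33e-05) and IO-3 exceeded SBIO-3 at least 2.31-fold (adjusted p = 0.000639). In BALB/c the gene was at 6.97, 6.83 and 7.60 in ICM and at 6.28, 6.22 and 6.47 in ESCs, a change of -0.81 (SE 0.19, adjusted p = 0.00182) under the 2-fold limit.

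Eif3a, the large scaffold subunit of eIF3, was at 7.87 on 1 hybrid ICM array and not detected on the other (6.05). In P15 it was at 10.09 and 10.17, a rise of 3.17 (SE 0.59, 9.03-fold, adjusted p = 0.000267). The size turned on the ICM array used, being 4.10 without ICM replicate 1 and 2.27 without ICM replicate 2. Of its other probes 1 changed by 2.73 and 1, with a mean level of 4.63 over the run, by -0.94. The BALB/c ICM arrays of the same run held it at 9.74 and 9.62, near P15 (10.06 and 10.14 in that fit). Eif3b, a core subunit, was at 8.59 and 8.86 in IO-5, at 9.55 and 9.50 in P2, at 7.47 and 7.18 in P4 and at 6.70 and 6.54 in P15. P15 lay under all other hybrid arrays, 2.10 below IO-5 (SE 0.46, 4.3-fold, adjusted p = 0.00428) and 1.53 below ICM (SE 0.46, 2.9-fold, adjusted p = 0.00915), whose arrays were at 8.84 and 7.48. The call against ICM was lost without ICM replicate 1, where the change was -0.86 (adjusted p = 0.139), and without either P15 array.

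Eif3k and Eif3d were also lower in P15 than in hybrid ICM, by 3.73-fold and 2.39-fold (adjusted p = 0.000424 and 0.000105). Eif3e was called lower in IO-0.5 (adjusted p = 0.00141) and in P15 (adjusted p = 3.99e-05) than in hybrid ICM, but its ICM arrays, at 6.21 and 5.86, were not above background, IO-0.5 was so on 1 array (5.23, the other at 4.56) and P15, at 4.48 on both arrays, on none. No fold is given for it.

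Eif4e, which encodes the cap-binding protein, changed most of all members. BALB/c ICM held it at 5.81, 5.60 and 5.27, BO-3 at 5.45 and 5.04, BO-9 at 5.18, 5.11 and 5.00 and ESCs at 9.22, 9.86 and 9.65. The ESC arrays lay above all others of the run without overlap, and ICM and BO-3 overlapped. ESCs were 4.48 above BO-9 (SE 0.18, 22.3-fold, adjusted p = 2.01e-11) and 4.02 above ICM (SE 0.18, 16.2-fold, adjusted p = 1.09e-11).

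The rise came early in the hybrid course. Eif4e was not detected in hybrid ICM (5.81 and 4.63) and was at 8.46 and 8.01 in IO-0.5. It stayed between 7.23 and 8.60 in all R2i outgrowths from IO-0.5 to IO-5, at 7.94 to 8.86 in P2 and P4 and at 9.15 and 8.93 in P15. P15 was the highest group, though its difference of 1.24 from IO-5 (SE 0.59) had an adjusted p of 0.145. Against ICM the rise was at least 2.5-fold at IO-0.5 (adjusted p = 0.00092) and at least 4.38-fold at P15 (adjusted p = 4.73e-05). The call at IO-0.5 was lost in 3 of 11 alternatives. These were median scaling, fitting ICM and IO-0.5 by themselves, and dropping ICM replicate 2. The change stayed positive throughout, from 1.57 to 3.65. Eif4e was the only member called in the same direction in the BALB/c ESCs and in hybrid P15, each against ICM of its own run. On the pair of BALB/c ICM arrays hybridised with the hybrid samples it was detected, at 5.72 and 5.76, and P15 exceeded them by 3.26 (SE 0.56, 9.58-fold, adjusted p = 0.00026). In SBIO-3 the arrays split, with 4.84 (not detected) and 7.36, and the fall of 1.95 from SBIO-1 (SE 0.59) had an adjusted p of 0.0359, which did not pass. A single probe measured the gene in each run.

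**Figure D3:**
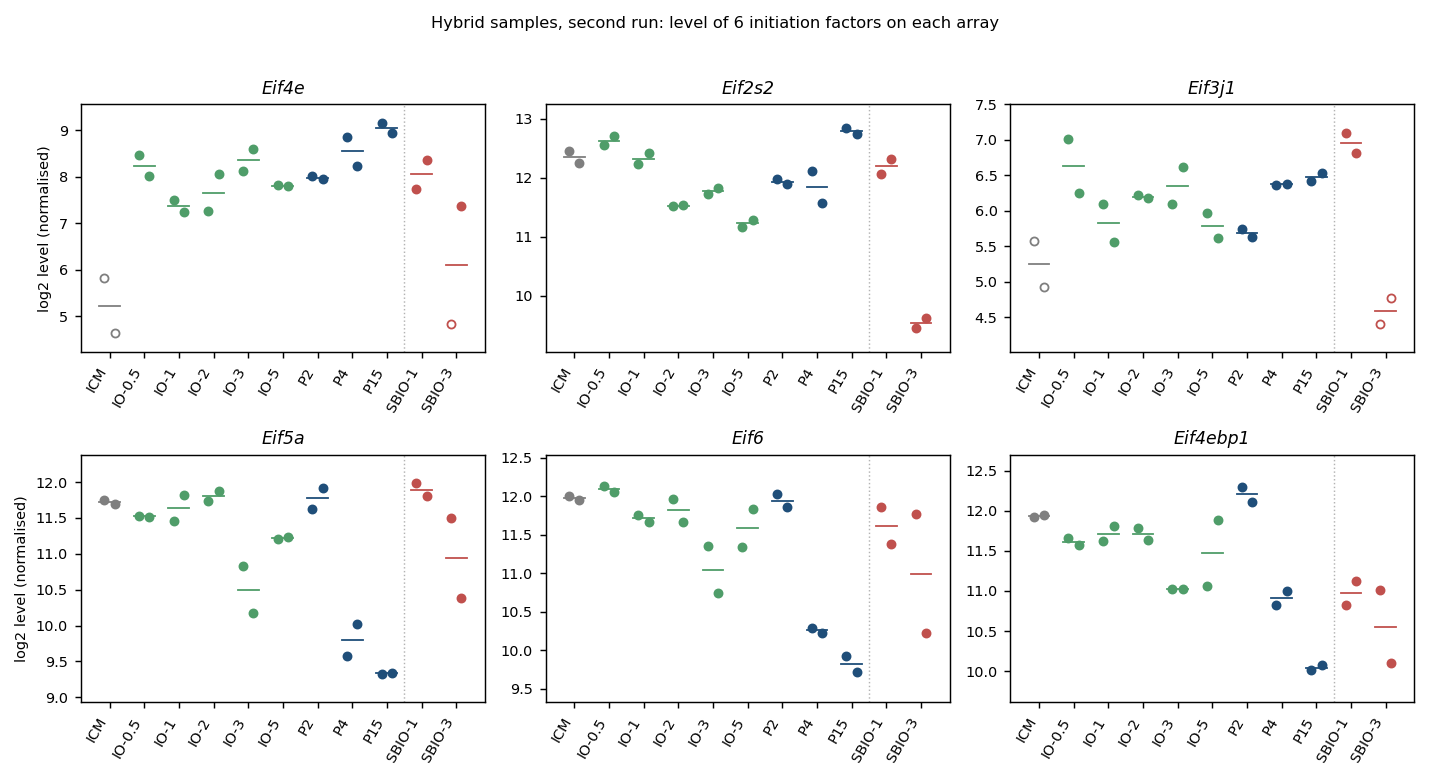
Points give the log2 level of 6 initiation factors on each hybrid array (2 per group), and bars the group means. Open circles were not detected, the dotted line sets the SB medium groups apart, and each panel has its own axis. Eif4e is above 7 in every R2i outgrowth and ESC array and undetected in ICM, Eif2s2 is lowest in SBIO-3, Eif3j1 is undetected in SBIO-3 and in ICM, and Eif5a, Eif6 and Eif4ebp1 are lowest on average in P15.

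Other parts of eIF4F moved in both directions. Eif4a2, which with its paralogue Eif4a1 encodes the eIF4A helicase, was at 11.68 and 11.73 in hybrid ICM, 12.95 and 11.61 in IO-5, 10.01 and 10.34 in P2, 13.47 and 11.96 in P4 and 13.73 and 14.03 in P15. P15 was 2.18 above ICM (SE 0.51, 4.52-fold, adjusted p = 0.00163), a call lost without P15 replicate 2 (adjusted p = 0.0158), and both its arrays lay above every other. Its rise of 2.54 from P2 to P4 (SE 0.51, adjusted p = 0.0186) did not pass the limit of this run. Eif4a1 was at 13.49 and 12.89 in IO-5 and at 12.02 and 11.75 in P15, 1.31 lower (SE 0.27, 2.48-fold, adjusted p = 0.00272), while its other probe changed by -0.08. Eif4a3, a helicase of the exon junction complex, was 2.23-fold lower in P15 than in hybrid ICM (adjusted p = 0.000573).

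Eif4g2, an eIF4G relative that does not bind eIF4E and that mouse ESCs need to differentiate, was at 6.53 on 1 hybrid ICM array and not detected on the other (6.44). IO-0.5 was at 7.95 and 8.07 and P15 at 9.01 and 9.33, with no overlap with ICM. The rises were 1.53 (SE 0.38, 2.88-fold, adjusted p = 0.00502) and 2.69 (SE 0.38, 6.44-fold, adjusted p = 2.1e-05), the first of which lost its call when any 1 of the 4 arrays was left out. The BALB/c ICM arrays of that run were at 9.48 and 9.45, as bright as P15. SBIO-3, at 6.75 and 7.73, lay below IO-3, at 8.31 and 9.16, by 1.49 (SE 0.38, adjusted p = 0.0105), just short of the limit.

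Eif4ebp1, the mTORC1-controlled repressor of eIF4E, was at 11.92 and 11.95 in hybrid ICM, 11.06 and 11.89 in IO-5, 12.30 and 12.11 in P2, 10.83 and 11.00 in P4 and 10.01 and 10.07 in P15. P15 was below all other hybrid arrays, of which SBIO-3 replicate 2 came nearest at 10.10. P15 was 1.44 under IO-5 (SE 0.28, 2.71-fold, adjusted p = 0.0022) and 1.90 under ICM (SE 0.28, 3.73-fold, adjusted p = 3.77e-05). In BALB/c ESCs it differed from ICM by -0.21 (SE 0.20, adjusted p = 0.403). Eif4ebp2 and Eif4enif1, the other tested partners of eIF4E, were not called in any main comparison.

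Eif5b, the GTPase that joins the ribosomal subunits, was tested in BALB/c only. It was at 7.15, 6.38 and 6.54 in ICM and at 7.64, 7.79 and 7.77 in ESCs, 1.04 higher (SE 0.20, 2.06-fold, adjusted p = 0.00034) and just past the 2-fold limit. Without ICM replicate 2 or ICM replicate 3 the call was lost.

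Eif5a encodes a hypusine-bearing factor that helps the ribosome through elongation and termination. BALB/c ICM held it at 9.93, 9.70 and 9.83, BO-3 at 8.56 and 8.77, BO-9 at 9.07, 8.69 and 8.90 and ESCs at 10.36, 10.15 and 10.31. All outgrowth arrays lay under the ICM arrays and the ESC arrays lay over them. The fall to BO-3 was 1.15 (SE 0.18, 2.22-fold, adjusted p = 5.91e-05), though its other 2 probes changed by 0.06 and 0.45. The rise from BO-9 to ESCs was 1.38 (SE 0.16, 2.61-fold, adjusted p = 3.78e-06), and there the other probes rose too, by 1.55 and 1.29.

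In hybrid cells the order of the groups was another. Eif5a was at 11.75 and 11.70 in ICM, 11.21 and 11.24 in IO-5, 11.63 and 11.92 in P2, 9.57 and 10.02 in P4 and 9.33 and 9.34 in P15. The arrays of P4 and P15 were the lowest of the run. From P2 to P4 it fell by 1.98 (SE 0.31, 3.95-fold, adjusted p = 0.00625), a call that was lost without any 1 of the 4 arrays. P15 was 1.90 below IO-5 (SE 0.31, 3.72-fold, adjusted p = 0.000573) and 2.39 below ICM (SE 0.31, 5.24-fold, adjusted p = 9.52e-06). The gene's other probe changed by only -0.09 and -0.48 in these 2, so that the size of the fall rests on 1 probe.

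Eif6, which keeps free 60S subunits from joining, had a like profile in the hybrid run. It was at 12.00 and 11.95 in hybrid ICM, 11.34 and 11.84 in IO-5, 12.03 and 11.86 in P2, 10.29 and 10.22 in P4 and 9.92 and 9.72 in P15. P15 lay below every other array of the run, 1.77 under IO-5 (SE 0.37, 3.42-fold, adjusted p = 0.00319) and 2.15 under ICM (SE 0.37, 4.45-fold, adjusted p = 0.000134). In BALB/c the gene spanned 0.34 over all groups.

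The 5 members Eif2b2, Eif3b, Eif4ebp1, Eif5a and Eif6 shared this hybrid profile. Each was lower on both P4 arrays than on both P2 arrays, by 1.33, 2.20, 1.28, 1.98 and 1.69 in that order, and only the change of Eif5a passed the test, the other adjusted p-values being 0.0225 to 0.0268. These 5 were picked out after their values were seen. Each was also lower on both IO-3 arrays than on both P2 arrays. Their means in the same order were 7.61, 8.27, 11.03, 10.50 and 11.04 in IO-3, and 8.46, 9.52, 12.20, 11.78 and 11.95 in P2. Of the 36 members 26 were below 0 from P2 to P4, with a median of -0.22 against 0.03 over all genes. In BALB/c ESCs against ICM the same 5 changed by 0.05, 0.42, -0.21, 0.45 and 0.01, and none was called. The other probes of Eif5a, with mean levels of 5.34 and 5.52 over that run, rose there by 1.94 and 2.04. The strains, array types and passages of the ESCs differ between the runs and cannot be told apart.

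The P15 calls against IO-5 stood beside a change in markers of other cell types. Of 8 tested primitive endoderm markers 6 fell, and their summed intensity ran from 11340 to 14940 in IO-5 and from 283.2 to 289.5 in P15, where Dab2, Gata4, Gata6, Pdgfra, Sox17 and Sox7 were not detected. For trophectoderm 4 of 8 markers fell, the sums being 8725 to 9103 and 7478 to 8230. Cdx2, Elf5, Gata3, Krt18 and Plac1 were not detected in P15, while 7 of the 8 were detected on both IO-5 arrays. Fewer cells of a type and less RNA per cell cannot be told apart in bulk samples, and the part of these cells in the factors' changes was not tested. The IO-5 arrays were unequal in brightness, with a 95th percentile of raw intensity of 2251 and 578.3. Without the dimmer, replicate 2, only Eif2s2, Eif4a1 and Eif5a were called, and without either P15 array only Eif2s2 and Eif5a.

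From BO-9 to BALB/c ESCs 6 of 7 primitive endoderm and 7 of 8 trophectoderm markers fell beside the rises of Eif4e and Eif5a, and Elf5 was not detected in ESCs. From BALB/c ICM to BO-3 3 of 8 trophectoderm and 3 of 7 primitive endoderm markers rose and 1 of each list fell. The summed trophectoderm markers were at 18470 to 20980 in ICM and 21590 to 31220 in BO-3, and those of the epiblast at 20130 to 22520 and 13750 to 14630. From hybrid ICM to IO-0.5 7 of 8 trophectoderm markers rose, with sums of 6409 to 7934 and 16990 to 17960. Of these 8, Elf5, Eomes, Gata3 and Plac1 were not detected on either of the dim hybrid ICM arrays. From hybrid ICM to P15 6 of 8 primitive endoderm markers fell, 3 of 8 trophectoderm markers fell and 1 rose, and 4 of 7 epiblast markers rose and 1 fell. The primitive endoderm sums were 6002 to 6598 in hybrid ICM. Their part in the factors' changes was not tested.

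The hybrid ICM values carry a limit of their own. P15 was compared also with the BALB/c ICM arrays of the same run, on which 37.9% and 37.1% of probes were detected. In that comparison 8 members were called where 22.6% of all genes were. Eif4e, Eif4a2 and Eif1ad were higher and Eif5a, Eif2b2, Eif4ebp1, Eif2b4 and Eif2d lower in P15. The changes of Eif4a2 (2.24), Eif1ad (1.54), Eif5a (-1.54), Eif2b2 (-1.50) and Eif4ebp1 (-1.24) had the sign they had against hybrid ICM. Eif4g2, Eif3j1, Eif5 and Eif3a, called higher against hybrid ICM, were not called here. Eif4g2 was at 8.97 and 9.29 in P15 and at 9.48 and 9.45 in BALB/c ICM. Eif3j1 was at 6.38 and 6.50 against 6.63 and 6.44, and Eif5 at 13.33 and 13.13 against 12.97 and 12.97. Eif6, Eif3b, Eif3k, Eif3d and Eif4a3, called lower against hybrid ICM, lay lower here too without a call. Between the ICMs of the 2 strains 5 members were called where 33.2% of all genes were, with Eif4g2, Eif3a, Eif1ad and Eif3j1 lower and Eif3e higher in the hybrid. Of these, Eif1ad, Eif3j1 and Eif3e were detected on neither hybrid ICM array and Eif3a and Eif4g2 on 1, and strain and the dimness of these arrays cannot be told apart.

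Whether MEK inhibition altered the course of the factors from day 1 to day 3 was tested as an interaction. It was called for 3 of 36 members, all with the higher change in R2i, where 5.8% of all genes were called higher and 4.37% lower. The change from day 1 to day 3 in R2i minus that in SB medium was 2.89 for Eif3j1 (SE 0.42, adjusted p = 0.000293), whose probe was not above background in SBIO-3 so that the size is not fixed, 2.11 for Eif2s2 (SE 0.29, adjusted p = 0.00016) and 1.52 for Eif1a (SE 0.34, adjusted p = 0.00538). On day 1 Eif2s2 differed by 0.13 between the media (SE 0.20, adjusted p = 0.811), Eif3j1 by -1.13 (SE 0.30, adjusted p = 0.0372) and Eif1a by -0.41 (SE 0.24, adjusted p = 0.386), none of which passed. Eif4e (2.95, SE 0.83, adjusted p = 0.0205), Eif3a (2.68, SE 0.84, adjusted p = 0.0333) and Eif4g2 (1.67, SE 0.53, adjusted p = 0.0366) had values in the same direction that did not pass.

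**Figure D4:**
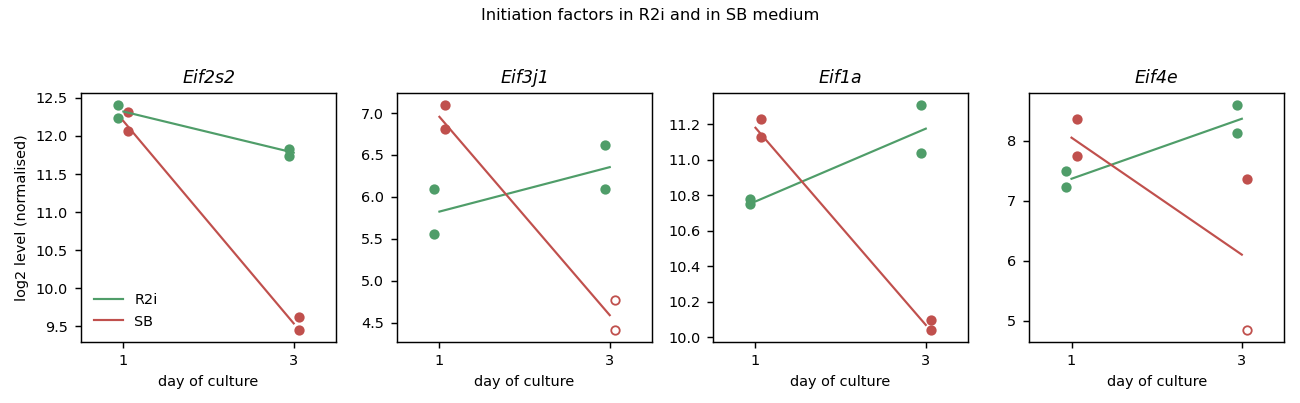
Points give the log2 level of 4 initiation factors on each array (2 per group) on days 1 and 3 in R2i (green) and in SB medium (red), and lines join the group means. Open circles were not detected. The SBIO-3 arrays lie below the others for Eif2s2 (9.45 and 9.63) and Eif1a (10.04 and 10.10), are undetected for Eif3j1 (4.41 and 4.77), and differ widely from each other for Eif4e (4.84 and 7.36).

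SBIO-3 also differed from SBIO-1 and IO-3 in its cell markers and its brightness. From SBIO-1 to SBIO-3 5 of 8 trophectoderm markers rose, their sums running from 3332 to 3443 and from 15730 to 16720, and 4 of 7 epiblast markers fell, with sums of 5107 to 5278 and 1348 to 2553. Sox2 was not detected in SBIO-3. In IO-3 the sums were 6652 to 7299 and 6674 to 7000. The trophectoderm sums of SBIO-3 were near those of IO-0.5 (16990 to 17960) and IO-1 (17220 to 18770), and IO-1 exceeded SBIO-1 in 6 of 8 of these markers. The primitive endoderm sums were 32750 to 32890 in SBIO-3, 32230 to 34980 in SBIO-1 and 15310 to 17360 in IO-3. The 95th percentile of raw intensity was 260.8 and 673.3 in SBIO-3, against 1475 and 1515 in SBIO-1 and 1558 and 1860 in IO-3. The part of cell makeup and brightness in the fall of the 3 factors was not tested. Eif2s2 was called whichever array was left out, and Eif3j1 lost its call between IO-3 and SBIO-3 without IO-3 replicate 2.

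Genes around the initiation factors were counted from lists of mTORC1 and cap control, the integrated stress response, elongation and termination, and helpers of scanning and recycling. From BALB/c ICM to BO-3 3 of 16 mTORC1 and cap genes fell, namely Akt1s1 (-1.03), Deptor (-1.40) and Pabpc4 (-1.56), and none rose. In that step the stress response gene Trib3 rose (1.66) and Ppp1r15b fell (-1.41) of 10 tested, Eef2k, undetected in ICM, rose at least 2.01-fold, Gspt2 (1.41) rose and Abce1 (-1.18) fell of 11 elongation and termination genes, and none of 7 helpers was called. Of all genes 7.48% fell and 13% rose in that step. From ICM to ESCs 5 of the 16 mTORC1 and cap genes fell, Akt1s1, Deptor, Mlst8, Pabpc4 and Tsc1, by 1.05 to 1.44, where 11.7% of all genes fell and 13.9% rose. Mcts1, which with Denr helps reinitiation and recycling, rose by 1.45 from BO-9 and by 2.00 from ICM to ESCs. The termination factor Gspt2 rose by 1.42 and 3.51, and the phosphatase subunit Ppp1r15b, which returns phosphorylated eIF2α to its active form, fell by 1.03 and 2.54. Both from BO-9 and from ICM to ESCs, 2 of 10 stress response genes fell and 1 of 11 elongation and termination genes rose. Of 7 helpers 1 rose from BO-9 and 2 rose from ICM. From BO-9 1 of 16 mTORC1 and cap genes fell, where 8.86% of all genes fell and 4.79% rose.

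In the hybrid run 5 of 9 integrated stress response genes, Atf4, Chac1, Ddit3, Nck1 and Ppp1r15b, rose from ICM to IO-0.5, all of them undetected in ICM, where 11.6% of all genes rose, and none of 11 elongation and termination genes was called. Of the other lists 2 of 5 helpers rose and 1 of 15 mTORC1 and cap genes fell, where 12.2% of all genes fell. From IO-5 to P15 3 of the 9 stress response genes fell, Atf5 by 1.92, Chac1 by 2.30 and Ddit3 by 2.05. In that step 4 of 15 mTORC1 and cap genes fell too, Akt1s1, Mknk2, Pabpc4 and Tsc2, by 1.22 to 2.21, and none rose, where 6.99% of all genes fell and 4.99% rose. Of 11 elongation and termination genes 1 rose, and of 5 helpers 1 fell. From hybrid ICM to P15 3 of 15 mTORC1 and cap genes rose and 6 fell, and 3 of 9 stress response genes rose and 2 fell. There 3 of 11 elongation and termination genes rose, and 1 of 5 helpers rose and 1 fell, where 24.2% of all genes rose and 23.9% fell. Mcts1, 1 of 5 helpers tested, was called beside Eif2s2, Eif3j1 and Eif1a in both SB medium comparisons. It was 1.47 higher in IO-3 than in SBIO-3 (adjusted p = 0.00438) and 1.62 lower in SBIO-3 than in SBIO-1 (adjusted p = 0.00307). In the first of these 2 of 15 mTORC1 and cap genes were lower in IO-3, and no other gene of the lists was called in either.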

How the data were processed

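Total RNA of pooled ICMs, outgrowths and ESCs was amplified and hybridised to Illumina bead arrays in 2 runs, per the labels. The authors deposited raw probe intensities exported from GenomeStudio, not corrected for background, and a detection p-value for each probe. They also deposited log2 values made with neqc of limma, whose version is not given in the sources used here. Intensities were processed here in R 4.3.3 with limma 3.58.1, using neqc with detection p-values in place of control probes, an offset of 16 and quantile normalisation over the arrays fitted. The result correlated with the deposited log2 values at r of at least 0.9999975 per array in the first run and 0.9999649 in the second, after a constant. Only probes with 1 gene symbol and a detection p under 0.05 on at least 2 fitted arrays were kept, and the brightest stood for its gene. Of 45281 probes on the first array type 34885 carried 1 symbol, and of 25697 on the second 23978. Linear models of limma (lmFit, eBayes) were fitted once per run, over 17 and 22 arrays, each with 11 residual degrees of freedom and 5.83 and 4.083 from the prior. A further fit took all 24 arrays of the second run, including the 2 BALB/c ICM arrays, which the paper leaves undescribed. The number of arrays limits the precision.

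A fold against a group in which no array detected the gene is a lower bound, the bright group's mean against, on each dim array, the larger of its own value and the lowest value of a detected probe. Folds were omitted where both groups were undetected or the bound fell under 1. Values on each array are given for members called in at least 3 of the 9 main comparisons, for up to 6 called members with the largest change in each, and for those called alike in ESCs and P15 against ICM. The members and the lists were chosen with earlier results of these data known. Scripts were tested on simulated data. Promoters came from RefSeq (GRCm38.p6). Figures were drawn with matplotlib 3.10.9 in Python 3.11.15.

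Alternatives were no background correction, median scaling, the deposited values, no filter on dim probes, the mean of a gene's probes, only the arrays compared, replicate number as a block, leaving out each array, BO-3 replicate 1 kept (it stays out otherwise) and, chosen after seeing the data, both hybrid ICM arrays left out.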

Additional observations from a re-analysis of the deposited data

Results flagged for a closer look

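The course from day 1 to day 3 differed between R2i and SB medium for 3 initiation factors by the interaction test of limma. The change in R2i minus that in SB medium was 2.89 on the log2 scale for Eif3j1 (adjusted p = 0.000293), whose probe was not above background on either SBIO-3 array so that the size is not fixed, 2.11 for Eif2s2 (adjusted p = 0.00016) and 1.52 for Eif1a (adjusted p = 0.00538), with 2 arrays in each of the 4 groups. Both SBIO-3 arrays lay below both IO-3 arrays for each of these genes. A fit of only the arrays compared was not run for the interaction. In IO-3 against SBIO-3 and in SBIO-3 against SBIO-1 that fit lost the calls of Eif2s2 and Eif3j1. For Eif2s2 and Eif3j1 the interaction itself stayed called under all 15 alternatives that were run. Over these it ran from 1.98 to 5.00 and from 1.13 to 3.98. For Eif1a it was lost in 7 of the 15, each leaving out 1 array (all but SBIO-3 replicate 2).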

How the results depend on the processing

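Counts below are of members called, and the cause of a change was not tested unless the setting itself gives it. Without background correction the counts were 2 in BO-3 against ICM, 1 in ESCs against ICM and 2 in IO-0.5 against ICM. Median scaling gave 4 in ESCs against BO-9, 0 in P15 against IO-5, 28 in P15 against ICM, 8 in IO-3 against SBIO-3 and 7 in SBIO-3 against SBIO-1. It moved the median of all genes by 1.47 in P15 against ICM, 0.97 in IO-3 against SBIO-3, -0.96 in SBIO-3 against SBIO-1, 0.63 in IO-0.5 against ICM, 0.26 in BO-3 against ICM and 0.12 in P15 against IO-5, and reversed Eif2b2 (1.35), Eif3b (1.41), Eif4ebp1 (2.00), Eif5a (1.49) and Eif6 (1.71) in P15 against ICM. Under it 99.5% of the genes called in P15 against ICM, 98.1% in IO-3 against SBIO-3, 65% in P15 against IO-5, 21.6% in ESCs against BO-9 and 3.76% in SBIO-3 against SBIO-1 were higher, against 50.3%, 56.1%, 41.7%, 35.1% and 48.2% with quantile normalisation. The mean of a gene's probes gave 2 in BO-3 against ICM and 4 in ESCs against ICM, and BO-3 replicate 1 kept gave 2 in BO-3 against ICM. Fits of only the 4 arrays compared gave 0 in IO-0.5 against ICM, IO-3 against SBIO-3 and SBIO-3 against SBIO-1, 3 in P15 against IO-5 and 10 in P15 against ICM. Leaving out both hybrid ICM arrays gave 5 in IO-3 against SBIO-3. The deposited values changed no count.

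Leaving out single arrays gave 4 to 5 in BO-3 against ICM, 2 to 4 in ESCs against BO-9, 2 to 3 in ESCs against ICM, 2 to 5 in IO-0.5 against ICM, 13 to 15 in P15 against ICM, 2 to 6 in P15 against IO-5, 0 in P2 against IO-5, 1 to 4 in IO-3 against SBIO-3 and 2 to 4 in SBIO-3 against SBIO-1. The count was 4 in ESCs against BO-9 without BO-9 replicate 2, BO-9 replicate 3 or ESC replicate 1, 2 in IO-0.5 against ICM without ICM replicate 2 or IO-0.5 replicate 1, 3 in P15 against IO-5 without IO-5 replicate 2 and 2 without either P15 array, and 1 in IO-3 against SBIO-3 without IO-3 replicate 2. A lone array left in a group is assumed to vary like those of the other groups. Over 496 settings of the named members 383 kept direction and call, 108 lost the call and 5 changed direction. Eif4e kept its call under all settings run in ESCs against BO-9, ESCs against ICM and P15 against ICM, and Eif2s2 in BO-3 against ICM.

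Samples with the same replicate number deviated together in some groups and apart in others, so the numbers were not taken to pair them. In the hybrid run mean r ran from -0.482 for IO-5 and P2 to 0.485 for IO-5 and P4. In the BALB/c run it ran from -0.133 for BO-9 and ESCs to 0.326 for BO-5 and BO-9. Between BALB/c outgrowth groups it was positive except for BO-3 and BO-9 (-0.017). With the replicate block 6 members were called in BO-3 against ICM, 4 in IO-3 against SBIO-3 and 0 in P4 against P2. Slide could not be tried as a block. In hybrid ICM 24 and 28 of the 36 members were detected, which limits folds against it.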
